A study of Homo sapiens with 16 samples.

Results

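The cytosolic ribosome is built from RNA and many small basic proteins, and the genes of those proteins are described here in 8 human lymphoid lines, untreated and after drugs that act on chromatin. A gene was a member if its symbol was RPL or RPS with a number and an optional A or X, or RPLP0, RPLP1, RPLP2 or RPSA, and if at least 1 probe set carried that symbol alone. This gave 51 genes of the 11963 measured, 31 of the large (60S) subunit and 20 of the small (40S) subunit. RPLP0, RPSA, RPL5, RPL10 and RPS27A have no such probe set and are not among the 51. In all, 16 ribosomal protein genes, RPL5 and RPL10 among them, appear only in probe sets that share symbols with other genes.

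Gene expression was measured on 16 Affymetrix GeneChip arrays, on which a set of short probes reads each transcript. Of the lines, 4 (Karpas 299, SU-DHL-1, JB6 and FE-PD) are from ALCL, the anaplastic large cell lymphoma that arises from T cells. The other 4 (Molt-4, Molt-3, Jurkat and CCRF-CEM) are T-cell leukaemia or lymphoma lines. Each line was measured once untreated and once after 6 days in 1 µM 5-aza-2'-deoxycytidine, an inhibitor of DNA methyltransferases, with 625 nM trichostatin A, an inhibitor of histone deacetylases, in the last 24 hours. All cultures grew in RPMI medium with serum, and there were 4 groups of n = 4 arrays, 1 array per line and condition. Each line is a single established culture, and Molt-3 and Molt-4 were both derived from the same patient, so the T-cell lines are not fully independent. Both drugs were given together, so their effects cannot be told apart.

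Ribosomal protein genes are transcribed at high rates in every growing cell, and their products are made in nearly equal numbers, imported into the nucleolus and assembled on ribosomal RNA. Their mRNAs begin with an unbroken run of pyrimidines (C or T), the 5' terminal oligopyrimidine tract, through which mTOR signalling and LARP1 set how well they are translated. The transcription factor MYC is a known activator of ribosome production in lymphoid tumours. Several members act outside the ribosome: RPL5 and RPL11 bind MDM2 when ribosome assembly is disturbed, and RPL22 is deleted or mutated in T-cell leukaemia.

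The starts of 6 members whose levels changed with treatment in the T-cell lines, and of 2 mitochondrial ribosomal protein genes that fell in both types of line, are shown because the run of pyrimidines is what the first class of gene shares and the rule that chose the members did not use. Each line holds the 30 bases before and the 20 bases from the RefSeq start in GRCh38.p14, read along the gene's own strand, and capitals mark the longest run of C or T within 20 bases of the start.

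RPL22, chr1:6199576-6199625, minus strand: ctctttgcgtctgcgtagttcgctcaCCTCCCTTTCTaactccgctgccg
RPL10A, chr6:35468371-35468420, plus strand: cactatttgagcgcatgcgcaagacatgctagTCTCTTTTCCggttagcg
RPL14, chr3:40457309-40457358, plus strand: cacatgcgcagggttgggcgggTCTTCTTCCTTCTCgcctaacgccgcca
RPL29, chr3:51995876-51995925, minus strand: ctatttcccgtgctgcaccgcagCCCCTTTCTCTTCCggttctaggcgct
RPS27, chr1:153990732-153990781, plus strand: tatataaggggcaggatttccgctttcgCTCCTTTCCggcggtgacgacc
RPL39, chrX:119791611-119791660, minus strand: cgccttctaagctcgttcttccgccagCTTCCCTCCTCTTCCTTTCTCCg
MRPL9, chr1:151763477-151763526, minus strand: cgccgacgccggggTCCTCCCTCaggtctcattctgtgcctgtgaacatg
MRPL34, chr19:17302835-17302884, plus strand: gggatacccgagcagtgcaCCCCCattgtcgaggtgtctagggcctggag

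In the 45 members of 51 with a RefSeq start in the table, the longest run had a median of 11 bases and ranged from 5 to 22. Over the 9563 measured genes with an entry the median was 5 bases, and in 45 mitochondrial ribosomal protein genes it was also 5. A run of at least 8 bases was found in 40 of 45 members (88.9%), in 23.1% of all genes and in 15.6% of the mitochondrial ones. The run spans the annotated start in RPL22, RPL14, RPL29, RPS27 and RPL39, begins at the third base of the transcript in RPL10A, and lies wholly upstream of it in MRPL9 and MRPL34. Members called lower, called higher and not called all carried it: 4 of 4, 2 of 2 and 34 of 39 of those with an entry had a run of at least 8 bases. Where a gene had several RefSeq starts, the one with the longest run was taken in every set.

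**Figure D1:**
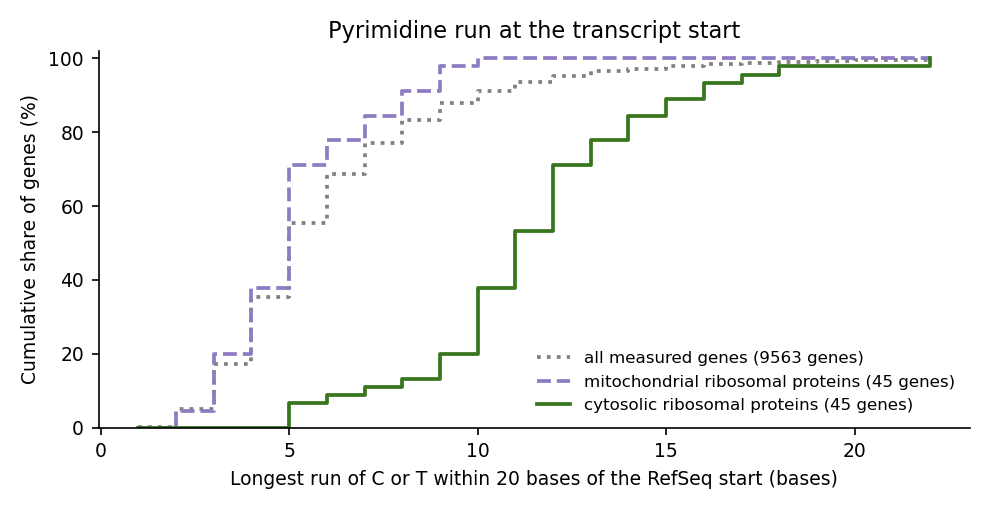
Cumulative share of genes (vertical axis, %) by the longest run of C or T within 20 bases of the RefSeq start (horizontal axis, bases; runs of 22 or more are drawn at 22), for cytosolic ribosomal protein genes, mitochondrial ribosomal protein genes and all measured genes with an entry. The cytosolic curve lies to the right of the others, with a median of 11 bases against 5 in each of the other sets.

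The following motifs were searched on both strands in the 300 bases around each start (250 before and 50 after). CCGGAAG, the core bound by ETS-family factors, was present in 35.6% of members, 37.8% of mitochondrial ribosomal protein genes and 14.9% of all genes. AAGATGG, the core of the YY1 motif, was present in 11.1% of members, 35.6% of mitochondrial ribosomal protein genes and 7% of all genes. CACGTG, the E-box that MYC can bind, was present in 2.22%, 11.1% and 9.02% of the same sets, and TATAAA in 6.67%, 2.22% and 8.65%. These are matches of letters and do not show binding.

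Before the results, some values of the arrays themselves bear on every treatment comparison. The control probe set for 28S ribosomal RNA read 6.6 to 7.62 (log2) on the untreated arrays and 6.81 to 8.15 on the treated arrays of Karpas 299, CCRF-CEM and Jurkat, but 12.05 to 14.26 on the treated arrays of Molt-3, Molt-4, SU-DHL-1, JB6 and FE-PD. The SD of all values on an array was 1.83 to 1.94 untreated and 1.6 to 1.81 treated. Labels and markers matched: the mean of 9 T-cell genes (CD3E, LCK and others) was 9.64 to 10.44 in untreated T-cell lines and 6.82 to 7.71 in untreated ALCL lines, and that of 8 ALCL genes (TNFRSF8, ALK and others) was 6.43 to 6.83 and 10.84 to 11.92. With treatment the T-cell genes of the T-cell lines read 7.66 to 8.03. Over all arrays the means of 5 B-cell, 6 myeloid, 2 erythroid and 5 stromal markers lay at 6.69 to 7.56, 5.21 to 6.21, 6.62 to 7.47 and 6.05 to 7. The part of these shifts in the results was not tested. In bulk samples a change in cell makeup and a change in RNA per cell cannot be told apart.

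In untreated cells the members gave strong and even signals. The untreated mean log2 signal was at or above 13 for 33 of the 51, where only 45 genes in all reach that value, and the highest reading of a member was 14.27 against 14.42 for any probe set. Whether signals this near the top are compressed was not tested. Across the 8 untreated lines the SD of a member had a median of 0.154, against 0.287 over all genes and 0.179 over the 21 other genes with an untreated mean at or above the members' lower quartile. The exceptions at the bottom were RPLP2, an acidic stalk protein that recruits elongation factors, at 5.82 and RPL27A at 6.26. For both of these, another probe set shared with a small nucleolar RNA read 13.05 and 13.17, so the low value belongs to the probe set that the rule selected.

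The members that varied most between untreated lines were RPL18, RPS9, RPS19, RPL35A and RPS3. RPL18 was 12.93 in FE-PD, 13.06 in JB6, 12.99 in SU-DHL-1 and 11.86 in Karpas 299. It was 12.83 in CCRF-CEM, 12.7 in Jurkat, 12.78 in Molt-3 and 12.74 in Molt-4, and this order of lines is kept below wherever 4 values are given. Only Karpas 299 stood below the others, and it kept that place after treatment at 11.88. RPS9, a protein of the decoding region, was 12.49, 12.18, 12.79 and 11.76 in the same ALCL lines and 12.35, 12.26, 12.45 and 12.23 in the T-cell lines, so Karpas 299 was again lowest. RPS19, the gene most often mutated in Diamond-Blackfan anaemia, was 13.61, 13.53, 14.19 and 13.29 in the ALCL lines and 13.47, 13.65, 13.41 and 13.41 in the T-cell lines. Here SU-DHL-1 was highest and Karpas 299 lowest. RPL35A ran from 12.44 in Karpas 299 to 13.3 in SU-DHL-1, and RPS3, at the entry of the mRNA channel, from 12.47 in Karpas 299 to 13.31 in CCRF-CEM.

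Between untreated ALCL and T-cell lines no member passed the test (limma, adjusted p below 0.05 over all genes), where 8.76% of all genes did. At an unadjusted p below 0.05 there were 4 (7.84%), all of the large subunit, against 25% of all genes. The median difference, ALCL minus T-cell, was 0.06 for the members and 0.04 for all genes. In 3 members, RPL8, RPL37 and RPS15, all 4 ALCL values lay above all 4 T-cell values, and in none below; over all genes 18.3% had no overlap in 1 direction or the other. These 3 were chosen after their values were seen. RPL8 was 13.1, 13.36, 13.19 and 13.17 in the ALCL lines and 13.09, 12.56, 12.99 and 12.63 in the T-cell lines, a difference of 0.39 ± 0.14 (± is the standard error of the fit throughout; adjusted p = 0.142). Without Karpas 299, 1 member was called higher in the ALCL lines.

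With treatment, the T-cell lines lost signal from a few proteins of the large subunit and gained it from a pair of others, while most members moved little. In the limma fit with the cell line as a block, RPL22, RPL10A, RPL30, RPL14 and RPL29 fell and RPL39 and RPS27 rose. That is 5 lower (20.2% of all genes were called lower) and 2 higher (21.7% of all genes were called higher) of 51, so members were called less often in both directions than the share over all genes; this difference was not tested. The median change over members was -0.01 on the log2 scale, with 25 up and 26 down, against 0.14 for all genes. The change was under 0.5 in size in 48 of 51 members (94.1%) and in 62.4% of all genes, and no member reached 1, a change of 2-fold. The 44 members that were not called ranged from -0.48 to 0.32, and those nearest the threshold were RPS9 (-0.44 ± 0.16, adjusted p = 0.0503) and RPL12 (-0.48 ± 0.18, adjusted p = 0.0549). By subunit, 6 of 31 large-subunit and 1 of 20 small-subunit members were called.

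**Figure D2:**
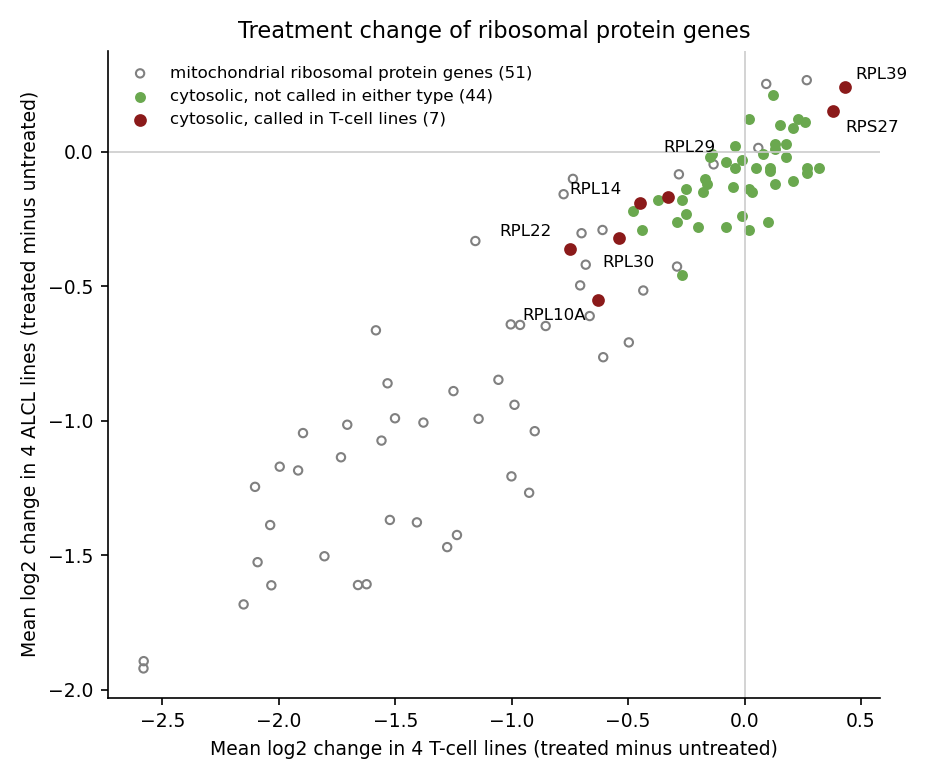
Mean log2 change with treatment in the 4 T-cell lines (horizontal axis) against the 4 ALCL lines (vertical axis) for 51 cytosolic and 51 mitochondrial ribosomal protein genes; red points were called in the T-cell lines. Cytosolic genes lie near the origin, from -0.75 to 0.43 in the T-cell lines, and mitochondrial ones reach -2.58.

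RPL22, a protein near the exit of the peptide tunnel that is dispensable for translation in most cells but needed in developing T cells, changed most. Its level was 12.66, 13.02, 12.91 and 12.74 in the untreated T-cell lines and 12.27, 12.4, 12.02 and 11.65 after treatment. All 4 treated values lay below all 4 untreated ones, and the change was -0.75 ± 0.15 (1.68-fold lower, adjusted p = 0.00429). Across the ALCL lines it went from 13.03, 12.91, 13.15 and 12.72 to 13.05, 12.35, 12.78 and 12.19. Of these FE-PD did not fall, and the mean change of -0.36 ± 0.15 did not pass (adjusted p = 0.113). The difference between the types, ALCL minus T-cell, was 0.39 ± 0.21 (adjusted p = 0.497). The fall in the T-cell lines kept its sign under 4 other scalings of the arrays, from -1.43 with arrays centred on hybridisation spikes to -0.22 with all arrays set to the same median and SD, and the call was lost under the last (adjusted p = 0.191).

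RPL22 is also the member with the most probe sets, 5 with its symbol alone, and their mean change was below 0 in both types. The changes in the T-cell lines were -0.75, -0.71 and -0.57 in the 3 probe sets whose names end in _x_at, which can cross-hybridise with similar sequences. They were -1.17 in 221726_at and -1.36 in 214042_s_at. Values in the ALCL lines in the same order were -0.36, -0.41, -0.28, -0.81 and -0.81. The probe sets with the lower signals thus showed the larger changes. In 214042_s_at the T-cell lines went from 9.84, 10.47, 10.47 and 10.4 to 9.03, 9.35, 8.9 and 8.48, again with no overlap.

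**Figure D3:**
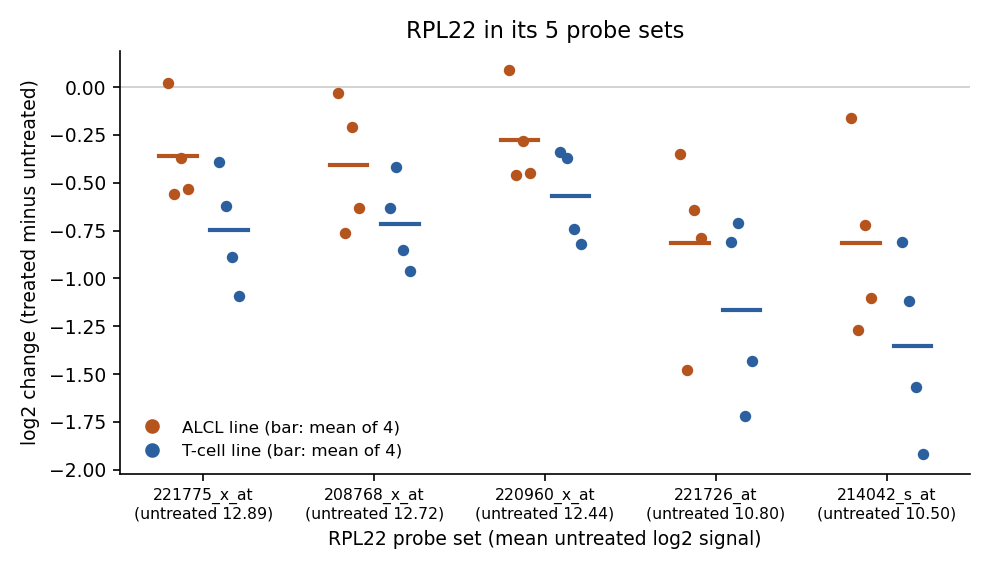
Change of RPL22 with treatment (vertical axis, log2) in each of its 5 probe sets, ordered by mean untreated signal, with 1 point per line and a bar at the mean of 4 lines. Every T-cell line is below 0 in every probe set, and the means in the T-cell lines run from -0.57 to -1.36.

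RPL10A, a protein of the flexible L1 stalk through which spent tRNA leaves, was 12.25, 12.52, 12.36 and 12.26 in the untreated T-cell lines and 12.24, 11.78, 11.74 and 11.09 after treatment. CCRF-CEM hardly moved and Molt-4 moved most, and the mean change was -0.63 ± 0.18 (adjusted p = 0.0213). In the ALCL lines it went from 12.75, 12.4, 12.69 and 12.26 to 12.57, 11.57, 12.22 and 11.54, down in 4 of 4 lines, with a change of -0.55 ± 0.18 (adjusted p = 0.0583). It kept its sign under the other scalings, but its call was lost under quantile normalization (-0.39) and with arrays set to the same median and SD (-0.16).

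RPL30, RPL14 and RPL29 fell by less, and all of them turned sign in the T-cell lines when arrays were set to the same median and SD (0.07, 0.07 and 0.26). RPL30 went from 13.22, 13.19, 13.36 and 13.22 to 13.2, 12.43, 12.71 and 12.49, a change of -0.54 ± 0.16 (adjusted p = 0.022), to which CCRF-CEM added next to nothing. RPL14 went from 12.6, 12.58, 12.56 and 12.47 to 12.33, 12.24, 12.02 and 11.83, a change of -0.45 ± 0.14 (adjusted p = 0.0286) without overlap. RPL29, a small basic protein of the large subunit, went from 13.13, 12.84, 13.08 and 13.09 to 12.95, 12.59, 12.83 and 12.44, a change of -0.33 ± 0.12 at the edge of the threshold (adjusted p = 0.0494). The changes in the ALCL lines were -0.32, -0.19 and -0.17, none of which passed. Another RPL29 probe set of similar mean signal (12.93 against 13) gave -0.61 in the T-cell lines and -0.33 in the ALCL lines.

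RPL39 and RPS27 were the members called higher. RPL39, the X-linked gene of a very small protein that lines the peptide tunnel, was 13.13, 12.99, 13 and 13.04 in the untreated T-cell lines and 13.44, 13.22, 13.6 and 13.61 after treatment. The groups did not overlap and the change was 0.43 ± 0.12 (1.35-fold higher, adjusted p = 0.0198). Among the ALCL lines it went from 13.12, 12.86, 13.07 and 13.19 to 13.29, 13.11, 13.54 and 13.27, up in 4 of 4 lines, by 0.24 ± 0.12 (adjusted p = 0.174). RPS27, a zinc-finger protein of the small subunit, went from 12.76, 12.69, 12.64 and 12.73 to 13.27, 12.86, 13.06 and 13.13 in the T-cell lines, by 0.38 ± 0.14 (adjusted p = 0.0496), and by 0.15 in the ALCL lines, where Karpas 299 fell from 12.46 to 12.22. Both rises turned sign with arrays centred on hybridisation spikes (-0.25 and -0.3), a scaling that lowers every gene's change alike and took the median of all genes from 0.14 to -0.54.

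**Figure D4:**
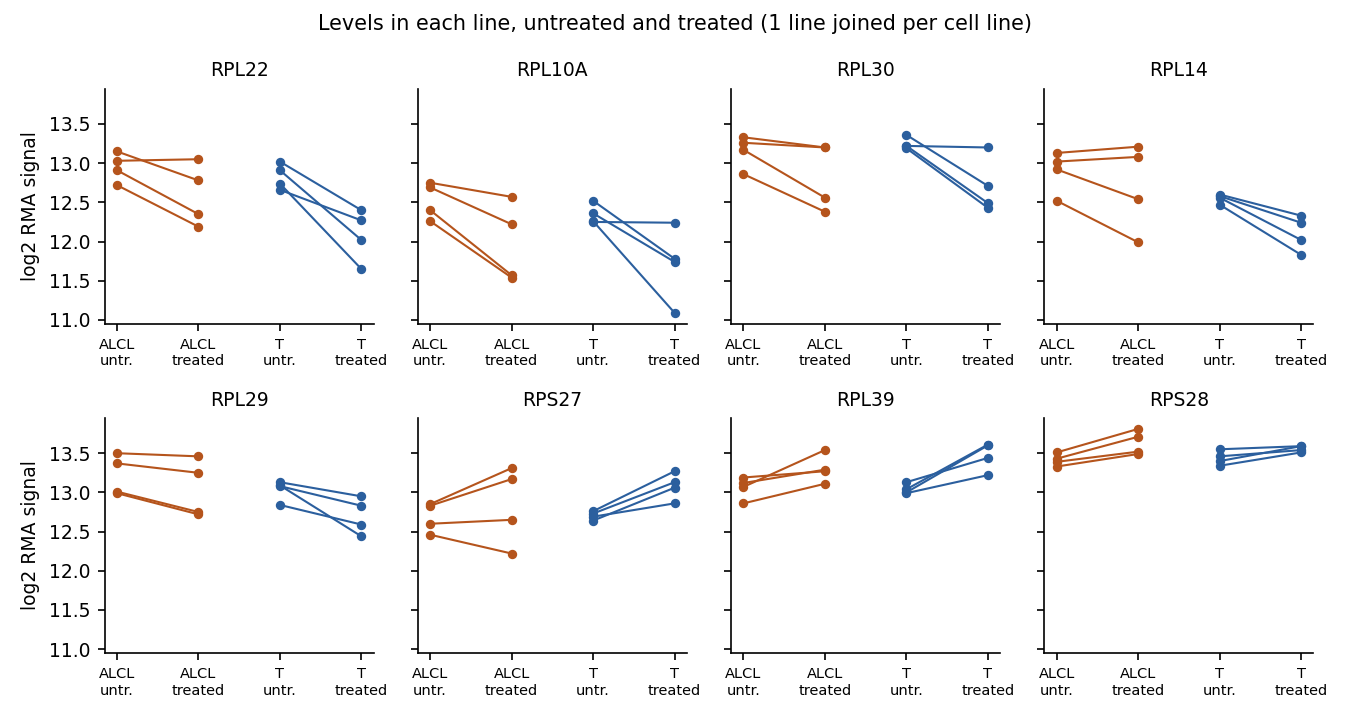
Log2 RMA signal of 8 members (vertical axis) in each line, with the untreated and treated array of a line joined; ALCL lines are brown and T-cell lines blue. RPL22 falls in all 4 T-cell lines and RPL39 rises in all 8 lines.

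These calls rest on few lines and on the scaling. Over 22 alternative settings the T-cell call held in 20 for RPL22, 18 for RPL39, 16 for RPL30, 15 for RPL10A and 13 for RPL14, but in only 8 for RPS27 and 6 for RPL29. These tallies do not rank the genes, because the settings do not test them alike. RPL39, RPL30, RPL10A and RPS27 have 1 probe set each, so settings that change the probe set leave their values as they are. Leaving out an ALCL line does not change the T-cell arrays. Without Jurkat, Molt-3 or Molt-4 the count of members called lower in the T-cell lines went from 5 to 1, and without Molt-3 or Molt-4 none was called higher. Among the T-cell lines, in Molt-3 and Molt-4, whose treated arrays carry the 28S rise, 4 were called lower and 1 higher, and in CCRF-CEM and Jurkat none was. Molt-3 and Molt-4 are also the lines from the same patient, so the 28S rise and shared origin cannot be told apart here. With arrays set to the same median and SD, which widens the narrower treated arrays, 35 members were called higher in the T-cell lines and none lower, with a median of 0.61 (all genes -0.04). The direction of the family as a whole therefore depends on that choice.

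No member passed the test in the ALCL lines, where 13.4% of all genes were called lower and 8.04% higher. At an unadjusted p below 0.05 there were 4 members (7.84%), against 36.4% of all genes, and other choices of probe set, filter or scaling called up to 2 lower or up to 4 higher. The median change was -0.10, with 12 up and 39 down, against 0.09 for all genes. The value varied by line: the median over members was 0.09 in FE-PD, -0.25 in JB6, 0.01 in SU-DHL-1 and -0.21 in Karpas 299. In JB6 46 of 51 members were lower after treatment, in Karpas 299 40, in SU-DHL-1 23 and in FE-PD 18. JB6 carries the 28S rise and Karpas 299 does not. RPL6, chosen after its values were seen, had the smallest adjusted p, going from 12.35, 12.16, 12.46 and 12.05 to 12.17, 11.33, 12.3 and 11.38 (-0.46 ± 0.15, adjusted p = 0.0536). The 4 T-cell lines had medians of 0.07 in CCRF-CEM, 0.03 in Jurkat, -0.02 in Molt-3 and -0.04 in Molt-4. Without FE-PD, 2 members were called lower in the ALCL lines.

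**Figure D5:**
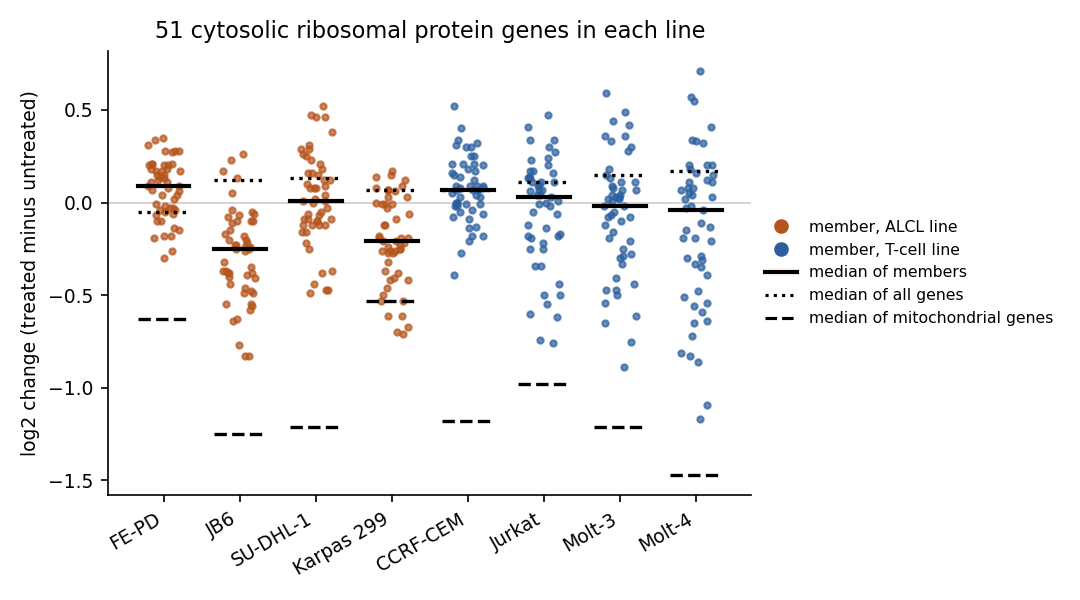
Change with treatment (vertical axis, log2) of each of the 51 members in each line, with bars for the median of the members (solid), of all genes (dotted) and of 51 mitochondrial ribosomal protein genes (dashed). The members' medians lie between -0.25 in JB6 and 0.09 in FE-PD, above the mitochondrial medians in every line.

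No difference in response between the types passed the test. For the interaction, the ALCL change minus the T-cell change, no member was called (1.68% of all genes were) and none had an unadjusted p below 0.05, against 13% of all genes. The standard errors of these differences were 0.15 to 0.26, as large as many of the changes themselves. Between treated ALCL and treated T-cell lines no member passed either, where 2.88% of all genes were called, and none had an unadjusted p below 0.05, against 15.9% of all genes. The differences, ALCL minus T-cell, reached -0.61 ± 0.28 in RPS21 and 0.60 ± 0.27 in RPL14. Across the 51 members the T-cell change followed the ALCL change, with Pearson r = 0.745 and Spearman rho = 0.726. Over all genes r was 0.728; the arrays of the types are separate, but genes are not independent replicates. By pairs of lines, over the 49 members with an untreated mean above 7, the changes correlated from r = 0.152 (Karpas 299 with CCRF-CEM) to r = 0.893 (Molt-3 with Molt-4, from the same patient).

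Some members moved one way in 8 of 8 lines. RPL10A, RPL19, RPL29, RPL30 and RPL35A were lower on the treated array in every line, 5 of 51, where 14% of all genes were (RPL35A in CCRF-CEM by less than 0.01). RPL39 and RPS28 were higher in every line, 2 of 51, where 15.2% of all genes were. RPL19, RPL35A and RPS28 were picked here after their values were seen, and none of them passed the test in either type. RPS28, a small protein at the mRNA exit, went from 13.43, 13.39, 13.51 and 13.33 to 13.71, 13.52, 13.81 and 13.49 in the ALCL lines and from 13.55, 13.34, 13.46 and 13.4 to 13.59, 13.51, 13.54 and 13.59 in the T-cell lines. Its mean change was 0.12 ± 0.11 in the T-cell lines and 0.21 ± 0.11 in the ALCL lines. RPL19 changed by -0.25 ± 0.11 and -0.23 ± 0.11 in the same order, and turned sign in the T-cell lines (0.37) with arrays set to the same median and SD.

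Values for members with special roles follow, most of which did not pass. Of the stalk proteins, RPLP1 changed by 0.18 ± 0.14 in the T-cell lines and -0.02 ± 0.14 in the ALCL lines, and RPLP2 by 0.26 ± 0.16 and 0.11 ± 0.16. These RPLP2 values come from its weak probe set (untreated mean 5.82). The strong one shared with a small nucleolar RNA (13.05) gave 0.26 ± 0.11 and 0.10 ± 0.11. RPL11, which holds back MDM2, changed by 0.11 ± 0.14 and -0.07 ± 0.14. RPS6, the substrate of S6 kinase, changed by -0.25 ± 0.14 and -0.14 ± 0.14, and RPS19 by -0.37 ± 0.18 and -0.18 ± 0.18. Other strong probe sets of RPS6 gave -0.45 and -0.08 in the T-cell lines and -0.43 and -0.11 in the ALCL lines. RPS4X, X-linked, changed by -0.05 ± 0.13 and -0.13 ± 0.13, and RPL41, the smallest ribosomal protein, by -0.16 ± 0.11 and -0.12 ± 0.11. Further lists were 6 members of a Diamond-Blackfan list, 6 of a list for decoding and the head and shoulder of the small subunit, and 2 of the stalk. None of these was called in either type, where 7 of all 51 members were called in the T-cell lines and none in the ALCL lines. On a list of 8 members drawn up for the exit tunnel, RPL22 and RPL29 fell and RPL39 rose in the T-cell lines. That is 37.5% called against 41.9% of all genes in either direction. The place of each member in the ribosome was not checked, so this share describes the list and not the tunnel.

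Where a gene has several probe sets they often disagreed. Of the 23 members with more than 1, the probe sets differed in the sign of the change in 10 in the T-cell lines and in 9 in the ALCL lines. For RPL14 the 3 probe sets gave -0.45, -0.66 and 0.32 in the T-cell lines, the last from a probe set with a mean signal of 6.55. For RPL35A they gave -0.27, 0.44 and 0.56, where the positive values came from signals of 6.18 and 4.51. RPS21 gave 0.21 and -0.56, and RPS12 gave -0.08 and 0.47. In RPL38 the probe set chosen by the rule gave 0.23 ± 0.12 and the 2 weaker ones 0.92 and 0.79 in the T-cell lines. With the mean of all probe sets of a gene, RPL38 (0.64) and RPL18 (0.27) were called higher.

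Adding 13 genes whose probe sets also list a small nucleolar RNA, a microRNA or a pseudogene gave 64 genes, an extension made after the data were seen. In the T-cell lines 7 were then lower and 3 higher, again below the shares of all genes called (20.2% and 21.7%), and in the ALCL lines none was called. RPL10, a gene mutated in T-cell leukaemia, fell by 0.81 ± 0.17 on the log2 scale in the T-cell lines (adjusted p = 0.00544) and changed by -0.45 ± 0.17 in the ALCL lines (adjusted p = 0.0844). RPL21 fell by 0.61 and RPL28 rose by 0.33 in the T-cell lines. RPL5, the partner of RPL11, changed by 0.11 ± 0.15 in the T-cell lines and -0.17 ± 0.15 in the ALCL lines. The signal of such probe sets cannot be assigned to the ribosomal protein gene alone.

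The proteins of the mitochondrial ribosome, which are encoded in the nucleus too but serve translation inside the organelle, fell broadly on the same arrays. Of 51 measured, 43 fell and none rose in the T-cell lines, with a median of -1.16. In the ALCL lines 36 fell and none rose, with a median of -0.99. In the counts of this and the following lists, fell and rose mean called at an adjusted p below 0.05. Of all genes, 20.2% were called lower in the T-cell lines and 13.4% in the ALCL lines. In the T-cell lines 30 of the 51 mitochondrial genes changed by 2-fold or more. MRPL9 went from 9.75, 9.93, 9.65 and 9.57 to 7.2, 7.76, 6.67 and 6.94 in the T-cell lines (-2.58 ± 0.18, adjusted p = 3.82e-05) and from 9.83, 9.67, 9.72 and 10.9 to 8.43, 7.2, 7.65 and 9.15 in the ALCL lines (-1.92 ± 0.18, adjusted p = 0.000225). Under the 4 other scalings between 36 and 45 of the 51 were called lower in the T-cell lines and none higher. The 21 other genes with an untreated mean at or above the members' lower quartile had 10 lower and 1 higher in the T-cell lines, with a median of -0.35, and 7 lower in the ALCL lines. That is 47.6% lower in the T-cell lines and 33.3% in the ALCL lines, against 20.2% and 13.4% of all genes. In the T-cell lines 4.76% were higher, against 21.7% of all genes. The lists were compared by counts and medians, and the difference between them was not tested.

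Genes that make and supply ribosomes fell as well. Of 20 factors of ribosome biogenesis, 15 were called lower and none higher in the T-cell lines (median -0.73). In the ALCL lines 12 were called lower and none higher (median -0.72). POLR1B, a subunit of RNA polymerase I, was the 1 factor with a mean change above 0. It changed by 0.54 in the T-cell lines and 0.68 in the ALCL lines and was not called. The shares of all genes called lower were 20.2% in the T-cell lines and 13.4% in the ALCL lines. UBTF, which activates RNA polymerase I at the ribosomal DNA, went from 8.43, 8.63, 9.1 and 9.02 to 6.92, 6.99, 7.05 and 6.92 in the T-cell lines (-1.83 ± 0.2, adjusted p = 0.000251) and changed by -1.12 ± 0.2 in the ALCL lines (adjusted p = 0.00403). RRS1 and BYSL, assembly factors of the large and the small subunit, changed by -1.31 and -1.13 in the T-cell lines. Of 12 importers and chaperones that handle new ribosomal proteins, 11 fell in the T-cell lines (median -1.07) and 7 in the ALCL lines (median -0.85), against the same shares of all genes. PDCD2, a chaperone of the small-subunit protein uS5, changed by -2.23 ± 0.26 and -1.54 ± 0.26, and the import receptor KPNB1 by -1.26 and -1.03. These counts rest on few lines: without Molt-3, or without Molt-4, 7 biogenesis factors and 7 importers and chaperones were called in the T-cell lines, and without JB6 5 and 3 in the ALCL lines (without SU-DHL-1, 6 and 3). In CCRF-CEM and Jurkat, without the 28S rise, 3 of the 20 biogenesis factors and 30 of the 51 mitochondrial genes were called lower. That fit held 3 lines in all, so it had less power than the fit of 8. It also left out the T-cell lines from the same patient, Molt-3 and Molt-4.

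Translation factors, several of whose mRNAs also begin with a pyrimidine tract, were measured on the same arrays. The list of tract mRNAs used here also holds genes that are not translation factors, such as NPM1, HNRNPA1 and FAU. Of 17 genes on a list of such mRNAs, 11 fell and 2 rose in the T-cell lines (median -0.81). In the ALCL lines 5 fell and none rose (median -0.44). BTF3, NACA, NAP1L1 and IPO7 are also among the importers and chaperones above, so the counts of these lists overlap. In CCRF-CEM and Jurkat, without the 28S rise, 1 of the 17 was called lower (median -0.40), and in Molt-3 and Molt-4, with it, 12 were (median -1.12). These fits held 3 and 5 lines, so their counts cannot be compared. Molt-3 and Molt-4 also come from the same patient, so the 28S rise and shared origin cannot be told apart. With arrays set to the same median and SD, 7 were lower and 4 higher in the T-cell lines (median -0.26). BTF3, a subunit of the nascent chain complex, changed by -1.28 ± 0.15 and EIF3F by -1.35 ± 0.21 in the T-cell lines. NPM1, the nucleolar phosphoprotein, went from 11.84, 11.92, 12.3 and 12.3 to 11.15, 11.31, 11.02 and 10.84 there (-1.01 ± 0.17, adjusted p = 0.00172) and changed by -1.04 ± 0.17 in the ALCL lines. FAU, whose product carries the small-subunit protein eS30, changed by -0.50 ± 0.16 in the T-cell lines (adjusted p = 0.0292), or 0.01 with arrays set to the same median and SD. Of 28 other initiation factors, a list that also holds the repressors EIF4EBP1 and EIF4EBP2, 12 fell and 1 rose in the T-cell lines. In the ALCL lines 10 fell and 1 rose. Of all genes, 20.2% were called lower in the T-cell lines and 13.4% in the ALCL lines. Without Molt-3, 7 of the tract list and 7 of the other initiation factors were called lower in the T-cell lines, and without Molt-4 7 and 5; without JB6 3 and 3 were in the ALCL lines, and without SU-DHL-1 3 and 4. EIF2S2, the beta subunit of eIF2, changed by -1.20 and -1.32, and EIF4EBP2, a repressor of cap-dependent translation, rose by 0.51 and 0.73. The related repressor EIF4EBP1 went the other way. It changed by -1.28 ± 0.21 in the ALCL lines (adjusted p = 0.00266). In the T-cell lines it went from 10, 9.81, 8.71 and 8.52 to 9.41, 8.73, 8.03 and 7.77.

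The regulators of this programme were measured too. MYC went from 10.67, 10.42, 10.76 and 11.06 to 6.34, 7.08, 7 and 6.83 in the T-cell lines, a change of -3.92 ± 0.41 (15.1-fold lower, adjusted p = 0.000187). In the ALCL lines it went from 10.47, 10.24, 10.62 and 9.04 to 8.5, 6.95, 9.09 and 9.07 (-1.69 ± 0.41, adjusted p = 0.0163), with no fall in Karpas 299. Of 15 genes of mTOR, S6 kinase and MYC control, 4 fell and 1 rose in the T-cell lines and 4 fell and none rose in the ALCL lines. These shares, 33.3% and 26.7%, are near those of all genes called in either direction, 41.9% and 21.4%. LARP1, which binds pyrimidine-tract mRNAs, changed by -1.49 ± 0.23 and -1.35 ± 0.23, and MLST8, a subunit of the mTOR complexes, by -1.12 and -0.91. Of 8 genes of p53 signalling, 1 fell and 2 rose in the T-cell lines and 2 fell and 1 rose in the ALCL lines: CDKN1A, an inhibitor of cell division, rose by 1.44 and 1.55, and BAX, which promotes cell death, changed by -1.25 and -2.02. That is 37.5% called in each type, against the same 41.9% and 21.4% of all genes. Of 6 paralogs of ribosomal protein genes, RPL36AL fell (-0.81) and RPL3L rose (0.73) in the T-cell lines and none was called in the ALCL lines. The shares of all genes called in either direction were again 41.9% and 21.4%.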

How the data were processed

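The authors deposited log2 signals from RMA (R 2.10.1, per the submitters' processing notes), with probe set definitions not given in the sources used here. Of 22283 probe sets, 68 were controls, 19065 had 1 gene symbol, 1043 several and 2107 none in the platform annotation. Each gene was read by its single-symbol probe set with the highest mean over 16 arrays, whose names ended in _x_at for 16 members and _s_at for 26.

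Differences were tested with limma 3.58.1 (lmFit, eBayes) under R 4.3.3 by two-sided tests. P-values were adjusted by Benjamini-Hochberg across 11963 genes, with a call at an adjusted p below 0.05. Treatment effects and their interaction came from 1 fit of 16 arrays, blocked by cell line; comparisons of types used 8 arrays each. The lines pair by name, and the deviations of a line's arrays from their group means correlated at 0.33 to 0.643. Nothing states that arrays came from separate cultures, so p-values measure spread among these lines only. For treatment and interaction that is how the change varies from line to line, and for comparisons of types it is the spread of levels.

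Members whose treatment calls had all 4 lines moving 1 way, preset members by role, the 5 with the widest untreated range, up to 5 with disagreeing probe sets, MYC and up to 4 genes per list with the smallest adjusted p are named. Members and lists were chosen with earlier results of these data known. Starts come from RefSeq (GRCh38.p14). The scripts were tested on simulated data. The number of arrays limits the precision. B-cell, myeloid, erythroid and stromal markers were measured too.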

Additional observations from a re-analysis of the deposited data

Results flagged for a closer look

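In 40 tests for an array standing apart within a group of 4, which flag about 1 group in 20 by chance, 2 were marked. RPS6 in untreated CCRF-CEM was 13.14, where the other untreated T-cell lines lay between 13.5 and 13.53. RPL11 in treated Jurkat was 12.59, where the other treated T-cell lines lay between 12.4 and 12.43.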

How the results depend on the processing

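The array scaling mattered most. In the T-cell lines, where 2 members were called higher and 5 lower, the counts were 1 and 8 with arrays centred on the median, 3 and 2 after quantile normalization, 0 and 6 with arrays centred on spikes, and 35 and 0 with the same median and SD. The last also reversed RPL14 (0.07), RPL19 (0.37), RPL29 (0.26), RPL30 (0.07), RPL41 (0.58), RPS12 (0.54), RPS3 (0.63), RPS4X (0.58) and FAU (0.01). That scaling widens the narrower treated arrays about their median, so it raises genes far above the median on them. Which scaling is closer to the true change was not tested. Centring on spikes lowers every gene's change in the T-cell lines by the same amount (median of all genes 0.14 to -0.54), so any smaller rise turns negative, among the called genes RPL39 (-0.25), RPS27 (-0.3) and EIF4EBP2 (-0.17), and among members not called RPL18 (-0.55), RPL11 (-0.57), RPLP1 (-0.5), RPS28 (-0.56) and RPS21 (-0.47). Counts were 4 higher with each gene's probe sets averaged, 1 higher with the lowest 40% of genes left out, 1 higher and 4 lower in lines with the 28S rise and 0 and 0 in those without. Lines without the rise were fewer (3 against 5), so the last counts cannot be compared. Among the T-cell lines, those with the rise are also those from the same patient, Molt-3 and Molt-4. Without the cell line as a replicate block, 1 was called higher and 1 lower, so the pairing of arrays raised the count. Leaving out 1 line at a time gave 0 to 2 higher and 1 to 7 lower.

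For the ALCL lines, where none was called, 2 were lower with the mean of probe sets or without _x_at probe sets, and 1 with the low filter, centring on the median or on spikes; 4 were higher with the same median and SD. Leaving out 1 line gave 0 to 2 lower, and 0 to 1 higher between untreated types. HNRNPA1 in the ALCL lines was 0.07 without _x_at probe sets, and MYC 0.03 in Karpas 299, the ALCL line without the 28S rise. No scanner files or detection calls were used here, so no statement is made about background.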
